A study of Mus musculus with 4 samples.

Results

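The 34 genes described here encode enzymes and regulators of sterol and fatty acid synthesis. They were picked by symbol, as members of these pathways, and all 34 were found among the 22488 genes of the deposited tables. The sterol branch holds 23 genes, from the enzymes that make mevalonate to those that finish cholesterol. It also includes the genes of the SREBP transcription factors and of their escort and retention proteins. The fatty acid branch holds 11 genes, running from ATP citrate lyase (Acly) to the desaturase gene Fads2. RNA was sequenced from cultured mouse vascular smooth muscle cells (strain C57BL/6, passages 4 to 10). Both groups were transfected for 48 hours, one with a scramble siRNA and the other with an siRNA against the circular RNA circEsyt2, with 2 libraries in each. The comparison asks how these genes differ between cells given either siRNA. A gene table does not measure a circular RNA apart from its host gene, so the depletion of circEsyt2 was not checked. Whether the 2 libraries of a group are separate cultures is not stated in the labels, and the p-values reflect the spread among these 4 libraries alone, which may be technical.

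Cells build cholesterol from acetyl-CoA through mevalonate, squalene and lanosterol, and build long fatty acids from acetyl-CoA through malonyl-CoA and palmitate. Both pathways are controlled by the SREBP transcription factors, which are held in the endoplasmic reticulum by SCAP and the INSIG proteins when sterols are plentiful and are released to switch on their target genes when sterols run short. SREBP-2, from Srebf2, acts mainly on sterol genes and SREBP-1, from Srebf1, mainly on fatty acid genes. Palmitate is then lengthened by ELOVL elongases and given double bonds by SCD and FADS desaturases. Many of these genes are abundant in liver.

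Upstream sequences are shown for the 3 fatty acid genes with the lowest fold changes and for Hmgcs1, a sterol gene whose upstream window holds the letters of a sterol regulatory element. Each is the 250 bases before the RefSeq start on GRCm38.p6, read 5′ to 3′ on the gene's strand. They lie at chr3:129532136-129532385 (Elovl6, plus strand), chr9:77917115-77917364 (Elovl5, plus), chr19:10101504-10101753 (Fads2, minus) and chr13:119690101-119690350 (Hmgcs1, plus). Capitals mark matches, on either strand, to the sterol regulatory element letters TCACNCCAC, to the CCAAT box (CCAAT, read ATTGG on the other strand), to which NF-Y binds, and to the E-box CACGTG. No 2 of these motifs overlap in the windows shown.
Elovl6: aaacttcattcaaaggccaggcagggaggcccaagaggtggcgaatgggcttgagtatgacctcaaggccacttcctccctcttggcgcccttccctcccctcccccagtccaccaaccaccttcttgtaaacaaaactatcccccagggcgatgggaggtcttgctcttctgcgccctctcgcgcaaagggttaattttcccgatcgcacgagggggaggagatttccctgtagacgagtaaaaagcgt
Elovl5: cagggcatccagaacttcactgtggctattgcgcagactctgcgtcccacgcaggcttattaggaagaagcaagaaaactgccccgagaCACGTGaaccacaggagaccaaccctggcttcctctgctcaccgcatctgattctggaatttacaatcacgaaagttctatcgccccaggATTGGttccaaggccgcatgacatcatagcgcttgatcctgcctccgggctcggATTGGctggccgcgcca
Fads2: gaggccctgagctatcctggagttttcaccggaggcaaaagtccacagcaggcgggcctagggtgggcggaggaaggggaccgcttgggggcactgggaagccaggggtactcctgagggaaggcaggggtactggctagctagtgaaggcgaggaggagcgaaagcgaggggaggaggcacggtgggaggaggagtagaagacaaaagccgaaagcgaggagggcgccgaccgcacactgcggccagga
Hmgcs1: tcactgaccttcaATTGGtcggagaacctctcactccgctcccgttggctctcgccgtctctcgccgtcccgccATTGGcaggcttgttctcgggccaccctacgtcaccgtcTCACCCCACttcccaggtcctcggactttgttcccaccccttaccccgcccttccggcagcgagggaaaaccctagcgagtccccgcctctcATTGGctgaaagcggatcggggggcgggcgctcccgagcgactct

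The windows of Elovl6 and Fads2 hold none of these 3 motifs, that of Elovl5 holds 2 CCAAT boxes and 1 E-box, and that of Hmgcs1 holds 3 CCAAT boxes and 1 sterol regulatory element match, 137 bases before the start. RefSeq windows were found for 28 of the 34 genes (20 sterol, 8 fatty acid). A CCAAT box lay in the windows of 18 of the 20 sterol genes and 4 of the 8 fatty acid genes, and 33.8% of all 32851 RefSeq windows hold one. The E-box was found in 5 sterol genes and 1 fatty acid gene, against 6.02% of all windows. Only the Hmgcs1 window held TCACNCCAC, against 1.05% of all windows. A gene with several starts counts here if any of its windows matches, while the shares over all windows count each window. Counted by window, 23 of the 37 windows of these genes held a CCAAT box, 6 the E-box and 1 TCACNCCAC. These matches describe letters in short windows and are not sites shown to be bound.

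The counted reads numbered 2516428 to 4116791 per library. The 24 listed markers of hepatocytes summed to 23.7 and 17.2 FPKM in the scramble libraries, 4120 FPKM in circEsyt2 siRNA replicate 1 and 136 FPKM in replicate 2. FPKM, the unit of all levels below, is a count scaled to the length of the gene and to the library's total. Of the 24, scramble replicates 1 and 2 had 6 and 5 at 0, and circEsyt2 siRNA replicates 1 and 2 had 0 and 1. In circEsyt2 siRNA replicate 1 albumin (Alb) stood at 2080 FPKM, and in replicate 2 at 65.7 FPKM, against 9.16 and 1.66 FPKM with scramble siRNA. The raised liver transcripts were thus in both circEsyt2 siRNA libraries, far more in replicate 1, while the defining markers at 0 were Apoa1 and Serpina1b in scramble replicate 1, Ttr in scramble replicate 2 and none in either circEsyt2 siRNA library. Of 10 smooth muscle markers 0 were at 0 in any library, with sums of 2370 and 2450 FPKM with scramble siRNA and 1510 and 1420 FPKM with circEsyt2 siRNA. Of the 9 tested 7 fell (by the limma test described below), against 7.26% lower over all genes tested. All 24 hepatocyte markers were tested, and 0 passed in either direction. Their sum differed 30.3-fold between the 2 circEsyt2 siRNA libraries, a spread at which this test could hardly call them. That count therefore does not show equal levels in the groups. Some of them, such as Apoc3, reached the mean of 1 FPKM needed for testing only through replicate 1. The part of the smooth muscle difference between the groups in the results below was not tested. The sums of 8 adipocyte markers were 3.03 to 14.6 FPKM and those of 7 macrophage markers 3.60 to 33.9 FPKM. Those of 6 endothelial markers were 3.31 to 8.55 FPKM, and the highest of each was in circEsyt2 siRNA replicate 1. In that library Pck1 gave 9.68 of the 14.6 FPKM, Lyz2 21.4 of the 33.9 FPKM and Kdr 4.32 of the 8.55 FPKM. The adipocyte markers Plin4 and Lep and the defining macrophage marker Csf1r were lower there than in either scramble library. Of 2 endothelial markers tested 1 rose, and of 2 adipocyte and 3 macrophage markers tested 0 passed. Of their defining markers, Plin1 was at 0 in both scramble libraries, Adgre1 in scramble replicate 1, and Adipoq and Pecam1 in circEsyt2 siRNA replicate 2. Since liver makes sterols and fatty acids, the 2 circEsyt2 siRNA libraries are given apart for the genes described singly. In bulk libraries fewer cells of a type and less RNA per cell cannot be told apart.

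None of the 22 tested sterol genes passed the test in either direction, and in the fatty acid branch 1 of 10, the elongase gene Elovl6, was lower with circEsyt2 siRNA (limma with Benjamini-Hochberg adjustment over the whole table, threshold 0.05). Over all 11290 genes tested 12.7% passed, 5.47% higher and 7.26% lower. At an unadjusted p under 0.05 the sterol branch had 4 genes higher and 1 lower, and the fatty acid branch 0 higher and 3 lower. The share over all genes tested was 30.1% (14.2% higher, 15.9% lower). Voom on recovered reads called 0 sterol genes and 2 fatty acid genes, Elovl6 and Elovl5, both lower, against 18.3% of all genes (7.97% higher, 10.3% lower). The median log2 fold change, on the log2(FPKM + 1) scale used throughout for differences, was 0.02 in the sterol branch and −0.09 in the fatty acid branch, beside 0.004 over all genes tested. Fold changes under 0.5 in size were found for 20 of 22 sterol genes (90.9%) and 7 of 10 fatty acid genes (70.0%), against 66.6% of all genes. The difference between the branches was not tested, since genes of a pathway are not replicates. The fold changes ran from −0.43 to 0.63 in the sterol branch and from −1.55 to 0.32 in the fatty acid branch.

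**Figure D1:**
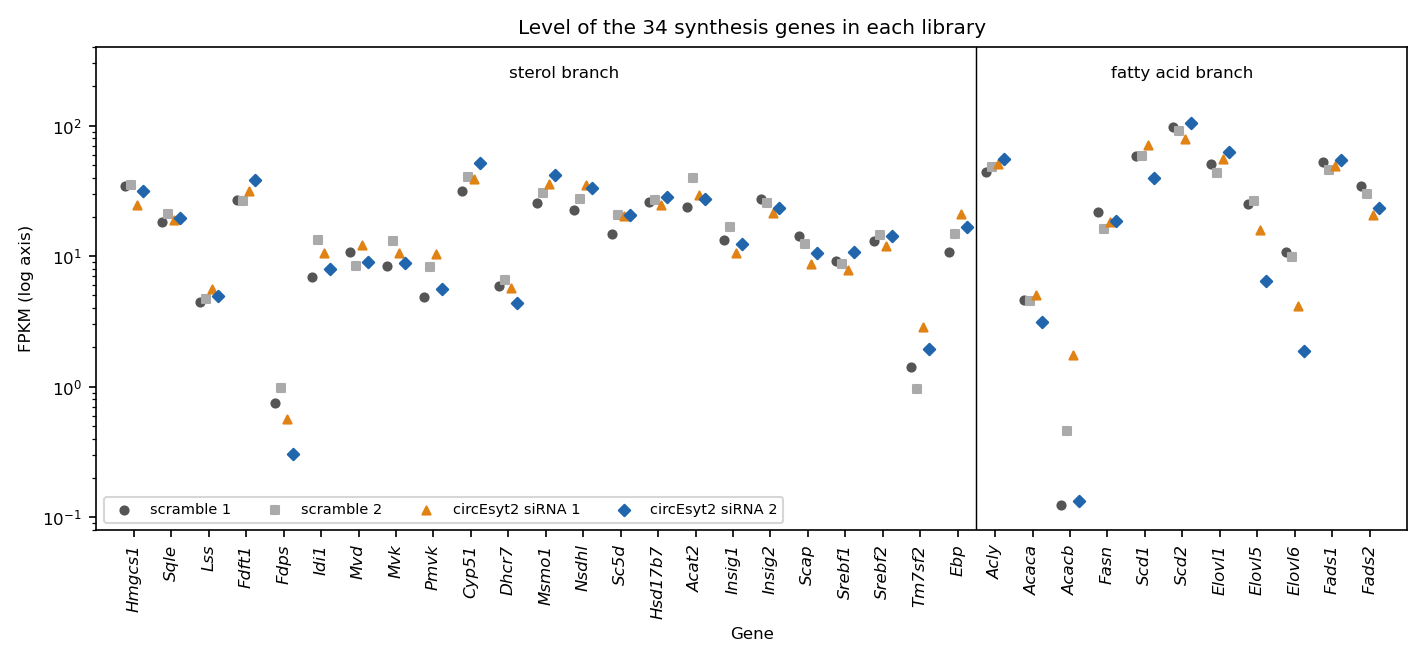
FPKM (log axis) of each of the 34 genes in the 4 libraries, with the sterol branch left of the line and the fatty acid branch right of it. The points of most genes lie close together, while Elovl5 and Elovl6 are lower in both circEsyt2 siRNA libraries and Acacb is high in circEsyt2 siRNA replicate 1 alone, at 1.76 FPKM.

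Among the regulators, Srebf2, the gene of the SREBP that drives sterol genes, measured 13.1 and 14.5 FPKM in the scramble libraries and 12 and 14.3 FPKM in circEsyt2 siRNA replicates 1 and 2. Srebf1 measured 9.10 and 8.67 FPKM against 7.83 and 10.7 FPKM. The groups overlapped for both genes, and neither passed the test (log2 fold change −0.07, 95% interval −0.45 to 0.31, for Srebf2 and 0.04, −0.42 to 0.51, for Srebf1). A gene table does not separate the Srebf1 transcripts that start at its different promoters. Scap, Insig1 and Insig2 were each below scramble in both circEsyt2 siRNA libraries, and none passed the test. Scap, which encodes the escort of SREBP, measured 14.2 and 12.3 FPKM against 8.64 and 10.6 FPKM (log2 fold change −0.43, SE 0.17; limma adjusted p = 0.156). Insig1, itself an SREBP target, measured 13.4 and 16.6 FPKM against 10.6 and 12.4 FPKM (log2 fold change −0.35, SE 0.17; limma adjusted p = 0.231). Insig2 measured 27.5 and 25.7 FPKM against 21.3 and 23.5 FPKM (log2 fold change −0.24, SE 0.13; limma adjusted p = 0.271). Such non-overlap was common, since the groups did not overlap for 60.7% of all genes tested, 29.7% higher and 31.1% lower.

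In the early steps of sterol synthesis no gene passed the test. Hmgcs1, which encodes the synthase that makes HMG-CoA, measured 34.3 and 35.3 FPKM in the scramble libraries against 24.6 and 31.7 FPKM. Both circEsyt2 siRNA values were below scramble, replicate 1 the further (log2 fold change −0.31, SE 0.16; limma adjusted p = 0.243). Sqle, the squalene epoxidase gene and a slow step of the pathway, measured 18.1 and 21 FPKM against 19.0 and 19.5 FPKM. The Sqle fold change was −0.02 with a 95% interval of −0.36 to 0.33, and the groups overlapped. The kinase genes Mvk and Pmvk, the decarboxylase gene Mvd and the isomerase gene Idi1, which turn mevalonate into isoprene units, had fold changes between −0.12 and 0.24, and their scramble replicates differed more than the groups did. The circEsyt2 siRNA libraries lay on opposite sides of the scramble mean for Pmvk (0.63 in replicate 1 and −0.16 in replicate 2), Mvd (0.33 and −0.07) and Idi1 (0.13 and −0.24), and Mvk lay at −0.23 in replicate 2 and at the scramble mean in replicate 1. The scramble replicates of Idi1 ran from 6.92 to 13.3 FPKM, and those of Acat2, the cytosolic acetoacetyl-CoA thiolase gene, from 23.9 to 39.8 FPKM. In 16 of the 22 tested sterol genes scramble replicate 2 was above replicate 1, and the median difference between these libraries was 0.17, larger than the branch's median fold change. Fdps, the farnesyl diphosphate synthase gene, was below the mean of 1 FPKM needed for testing, at 0.755 and 0.981 FPKM against 0.568 and 0.304 FPKM, on 8, 17, 9 and 4 reads.

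From squalene onward the branch held the 4 genes with an unadjusted p under 0.05 and a positive fold change, named after their values were seen. None passed the test after adjustment. Msmo1, the sterol C4-methyl oxidase gene, measured 25.5 and 30.6 FPKM against 35.7 and 41.5 FPKM (log2 fold change 0.45, SE 0.15; limma adjusted p = 0.106). Nsdhl, whose product acts in the same removal of C4-methyl groups, measured 22.6 and 27.3 FPKM against 34.8 and 33.5 FPKM (0.44, SE 0.14; limma adjusted p = 0.0946). Fdft1, the squalene synthase gene, measured 26.7 and 26.3 FPKM against 31.8 and 38.3 FPKM (0.39, SE 0.14; limma adjusted p = 0.126). Ebp, the sterol isomerase gene, measured 10.8 and 14.8 FPKM against 21.2 and 16.6 FPKM (0.53, SE 0.20; limma adjusted p = 0.147). All 4 had groups that did not overlap, as did Lss and Tm7sf2 on the higher side. These were 6 of the 22 tested sterol genes, against 29.7% of all genes tested. On the lower side 5 of the 22 did not overlap, against 31.1% of all genes tested. Dhcr7, the gene of the last reductase, was on the lower side, at 5.94 and 6.60 FPKM against 5.66 and 4.34 FPKM. Fdft1 shares exon bases with Ctsb, Cyp51 with Akap9 and Tm7sf2 with Vps51, and reads of overlapping genes cannot be assigned with certainty here. The same limit holds for Hmgcs1, Lss, Fdps, Idi1, Scap and Srebf1, which also share exon bases with other genes. The intervals of 3 of the 22 sterol genes reached past 1 on the log2 scale, those of Pmvk, Tm7sf2 and Ebp, and those of the rest stayed within 1 in either direction.

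**Figure D2:**
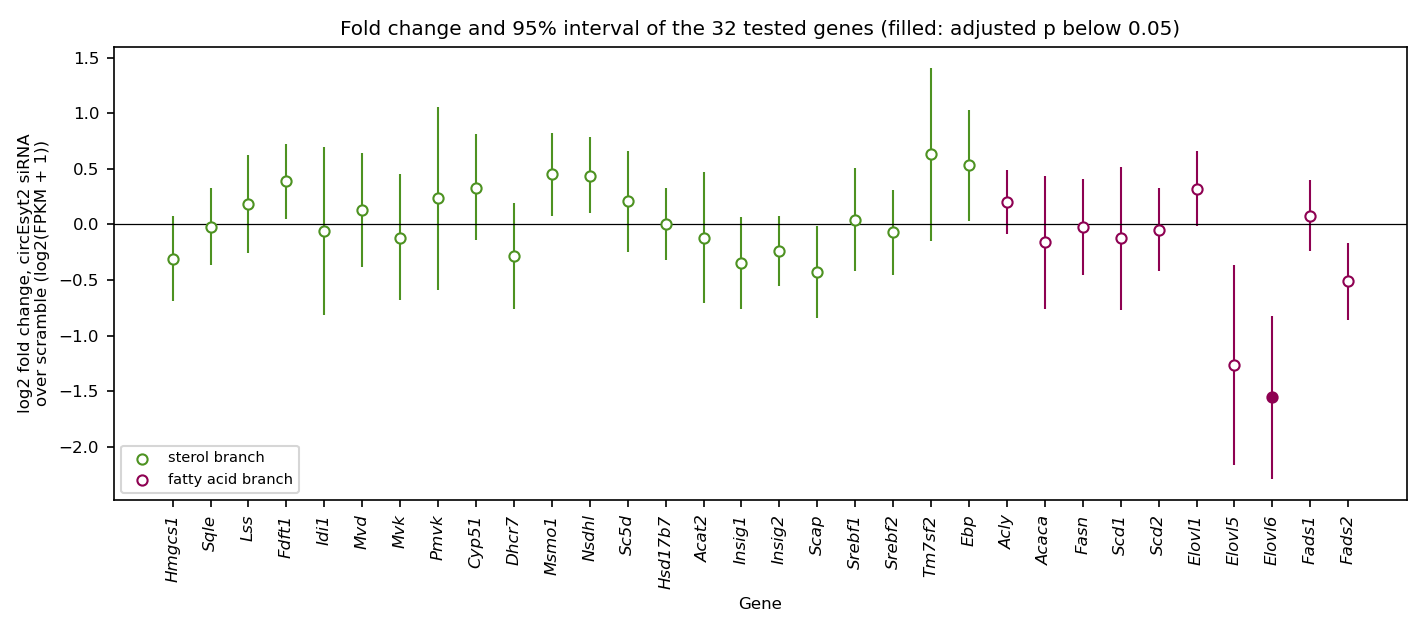
Log2 fold change (circEsyt2 siRNA over scramble siRNA, log2(FPKM + 1) scale) with its 95% interval from limma for the 32 tested genes, ordered by branch. Sterol genes lie between −0.43 and 0.63 with open symbols, and Elovl6, at −1.55, is the only filled symbol.

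No gene that supplies or assembles the chain of new fatty acids passed the test. Acly, the lyase that makes cytosolic acetyl-CoA, measured 44.4 and 48.0 FPKM against 50.8 and 55.7 FPKM, both above scramble (log2 fold change 0.20, 95% interval −0.09 to 0.49). Fasn, the fatty acid synthase gene, measured 21.7 and 16.0 FPKM against 18.1 and 18.6 FPKM, so both circEsyt2 siRNA values lay between the scramble values (−0.02, 95% interval −0.45 to 0.41). Acaca, the acetyl-CoA carboxylase gene that supplies malonyl-CoA for synthesis, measured 4.59 and 4.54 FPKM against 5.02 and 3.11 FPKM, replicate 1 above scramble and replicate 2 below. Its sister Acacb, the mitochondrial-surface carboxylase of oxidative tissues, measured 0.124 and 0.454 FPKM against 1.76 and 0.133 FPKM on 3, 18, 64 and 4 reads. Acacb was too low to be tested and was high in circEsyt2 siRNA replicate 1 alone, the library with 4120 FPKM of hepatocyte markers, whose part in that value was not tested.

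None of the 4 desaturase genes passed the test. Fads2, the delta-6 desaturase that opens the route to polyunsaturated fatty acids, measured 34.3 and 29.8 FPKM in the scramble libraries against 20.8 and 23.5 FPKM. Both circEsyt2 siRNA libraries were below both scramble libraries, and the fold change of −0.51 (SE 0.14) did not pass the test (limma adjusted p = 0.0673). Fads1, the neighbouring delta-5 desaturase gene on chromosome 19, measured 52.5 and 45.5 FPKM against 49.1 and 54.7 FPKM (0.08, 95% interval −0.24 to 0.40). The Fads2 to Fads1 ratio of FPKM, which no library scaling alters, was 0.652 and 0.655 in the scramble libraries against 0.423 and 0.430. That ratio was computed after the values were seen and shows only that the 2 genes changed unequally. Scd1, a delta-9 desaturase gene and one of the most abundant lipid genes of liver, measured 58.8 and 58.1 FPKM against 71.5 and 40.0 FPKM. Scd1 was thus above scramble in replicate 1 and below it in replicate 2 (log2 differences from the scramble mean 0.29 and −0.54). Scd2, its close paralogue, measured 97.7 and 91.0 FPKM against 79.6 and 104 FPKM, with the opposite order. Reads of paralogues can be shared, so their separate values are uncertain.

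The elongase genes Elovl6 and Elovl5 had the lowest fold changes of the 32 tested genes, and the third elongase gene, Elovl1, had the highest of the fatty acid branch. Elovl6, which lengthens palmitate to stearate, spans chr3:129532355-129638495 (GRCm38, plus strand). Its level was 10.8 and 9.93 FPKM in the scramble libraries (174 and 263 reads) and 4.17 and 1.89 FPKM in circEsyt2 siRNA replicates 1 and 2 (101 and 38 reads). Every circEsyt2 siRNA value was below every scramble value, at means of 10.3 ± 0.578 and 3.03 ± 1.61 FPKM (SD, n = 2), 3.41-fold lower by mean FPKM. Elovl6 fell by 1.55 on the log2 scale (SE 0.30; limma adjusted p = 0.0271). It shares exon bases with the gene model Gm35986, so its reads cannot be assigned with certainty. Elovl5, which lengthens polyunsaturated fatty acids made by FADS2, spans chr9:77917364-77984519 (plus strand). It measured 25.0 and 26.3 FPKM against 15.8 and 6.45 FPKM, on 222, 382, 209 and 71 reads. Both circEsyt2 siRNA values were again lower, and replicate 2 was lower than replicate 1 by 1.17 on the log2 scale. With both libraries the fold change of Elovl5 was −1.26 (SE 0.37) and missed the threshold (limma adjusted p = 0.0783), whereas voom on recovered reads called it (adjusted p = 0.0182). Elovl1, which elongates saturated very long chains, measured 51.0 and 43.5 FPKM against 55.2 and 63.3 FPKM (0.32, 95% interval −0.01 to 0.66), and it shares exon bases with Cdc20. The ratio of Elovl6 to Elovl1 was 0.211 and 0.228 in the scramble libraries against 0.0755 and 0.0298, and that of Elovl5 to Elovl1 was 0.491 and 0.606 against 0.285 and 0.102. Since Elovl1 had the highest fold change of the branch, these ratios show only that the genes changed unequally. The ratio of Elovl6 to Fasn was 0.496 and 0.622 in the scramble libraries against 0.231 and 0.101. The Elovl6 call was lost with eBayes without a trend (limma adjusted p = 0.0691), and without scramble replicate 1 or 2 (limma adjusted p = 0.269 and 0.182), fits in which no gene of the table passed and 1959 and 2231 genes had an unadjusted p under 0.05.

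**Figure D3:**
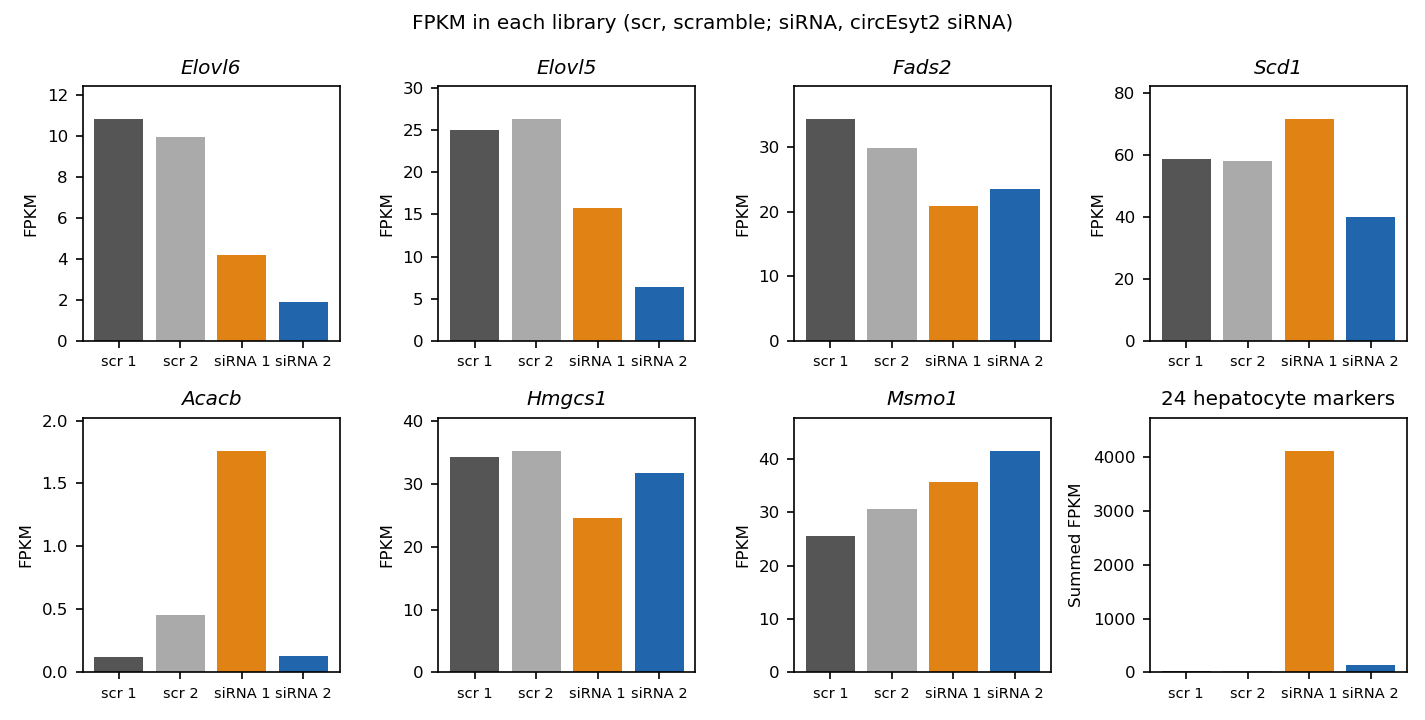
FPKM in each library for 7 of the genes and, in the last panel, the summed FPKM of 24 hepatocyte markers; each bar is 1 library and every axis starts at 0. Elovl6, Elovl5 and Fads2 are lower in both circEsyt2 siRNA libraries, while Scd1 and Acacb are highest in circEsyt2 siRNA replicate 1, where the hepatocyte markers sum to 4120 FPKM.

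Taking each circEsyt2 siRNA library alone against both scramble libraries, 2 fatty acid genes were called in replicate 2 and 0 in replicate 1, and 0 sterol genes in either. In replicate 2, the library with 136 FPKM of hepatocyte markers, Elovl6 fell by 1.97 on the log2 scale (limma adjusted p = 0.0128), 5.47-fold below the scramble mean by FPKM. Elovl5 in that library fell by 1.84 (limma adjusted p = 0.0105), 3.99-fold below by FPKM. In that fit 9.29% of all genes were called (3.66% higher, 5.63% lower). In replicate 1 the fold changes were −1.13 for Elovl6 (limma adjusted p = 0.0640) and −0.67 for Elovl5 (limma adjusted p = 0.0872), in a fit that called 4.38% of all genes (2.38% higher, 2.00% lower). The lone library is assumed in each fit to vary like the scramble pair, and the difference between the 2 libraries was not tested. Relative to the scramble mean the sterol branch had a median of 0.06 in replicate 1 and 0.03 in replicate 2, and the fatty acid branch −0.02 and −0.21. The direction differed between the libraries for Scd1, Acaca, Scd2, Srebf1 and Srebf2, among others. In the sterol branch 8 genes were above the scramble mean in both libraries and 7 below it in both, and for the other 7 the libraries lay on opposite sides. Over all 11290 genes tested, 4332 were above the scramble mean in both libraries and 4389 below it in both.

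**Figure D4:**
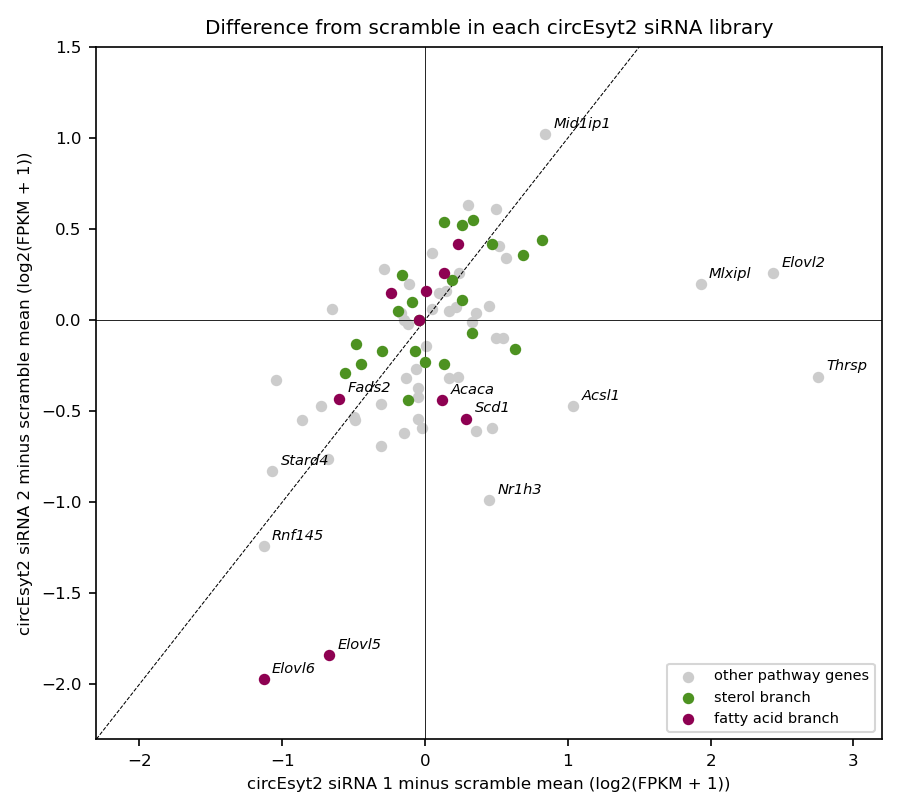
Difference from the scramble mean in circEsyt2 siRNA replicate 1 (horizontal) and replicate 2 (vertical), on the log2(FPKM + 1) scale, for tested genes of the 2 branches and of the lists of other pathway genes; the dashed line marks equal values. Elovl6 (−1.13 in replicate 1 and −1.97 in replicate 2) and Elovl5 (−0.67 and −1.84) lie below 0 in both, further in replicate 2. Thrsp, Elovl2 and Mlxipl lie far to the right, high in replicate 1 alone, and passed the filter on low values only through that library.

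Of 26 other genes of sterol supply and handling, all tested, 3 fell and 0 rose, a share close to the 12.7% of all genes, with a median of −0.08. Rnf145, which encodes a sterol-responsive ubiquitin ligase of the endoplasmic reticulum, measured 14.5 and 12.5 FPKM against 5.63 and 5.13 FPKM (log2 fold change −1.18, SE 0.16; limma adjusted p = 0.0109). Stard4, a carrier that moves cholesterol between membranes, measured 14.7 and 17.0 FPKM against 7.04 and 8.47 FPKM (−0.95, SE 0.17; limma adjusted p = 0.0214). Ch25h, which makes 25-hydroxycholesterol, measured 106 and 97.5 FPKM against 72.4 and 69.2 FPKM (−0.52, SE 0.11; limma adjusted p = 0.0334). All 3 were below scramble in both circEsyt2 siRNA libraries, and without replicate 1 the call of Rnf145 was kept and those of Stard4 and Ch25h were lost. Without replicate 2 none of the 3 calls was kept. Without a trend in eBayes the calls of Stard4 and Ch25h were lost (limma adjusted p = 0.0585 and 0.116), and over 11 alternatives Rnf145 was called in 8, Stard4 in 6 and Ch25h in 5.

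Of 31 other genes of fatty acid supply, elongation and activation 24 were tested, and of these 3 rose and 1 fell, beside 5.47% higher and 7.26% lower over all genes tested. Mid1ip1, whose product promotes the assembly of acetyl-CoA carboxylase into filaments, measured 12.3 and 12.9 FPKM against 23.3 and 26.6 FPKM (log2 fold change 0.93, SE 0.14; limma adjusted p = 0.0138). Fads3, the third gene of the Fads cluster, measured 52.0 and 51.3 FPKM against 73.6 and 79.1 FPKM (0.55, SE 0.11; limma adjusted p = 0.0278). Hsd17b12, which encodes the ketoacyl-CoA reductase that serves all elongases, measured 93.3 and 86.5 FPKM against 129 and 120.0 FPKM (0.46, SE 0.11; limma adjusted p = 0.0437). Acsl4, which activates arachidonate, measured 89.6 and 84.4 FPKM against 52.0 and 62.5 FPKM (−0.60, SE 0.13; limma adjusted p = 0.0368). Without circEsyt2 siRNA replicate 1 the calls of Mid1ip1 and Fads3 were kept and those of Hsd17b12 and Acsl4 lost, and without replicate 2 none of the 4 was kept. All 4 calls were lost without a trend in eBayes (limma adjusted p = 0.0510 to 0.141), and over 11 alternatives Mid1ip1 was called in 7, Fads3 in 6, Acsl4 in 4 and Hsd17b12 in 3. Among the elongation partners, the dehydratase genes Hacd1, Hacd2 and Hacd3 and the reductase gene Tecr did not pass the test. Their differences from the scramble mean in replicates 1 and 2 were 0.57 and 0.34 for Hacd1 and −0.50 and −0.53 for Hacd3. Those of Tecr were 0.10 and 0.15, and those of Hacd2 lay on opposite sides of the scramble mean, at 0.50 and −0.10. The list of 24 had a median of 0.17, 0.36 in circEsyt2 siRNA replicate 1 and −0.10 in replicate 2. Thrsp, Elovl2 and Mlxipl passed the filter on low values only through replicate 1, and without that library 21 genes were tested. The replicate 1 median thus includes genes let in by their high values there.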

How the data were processed

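RNA sequencing gave 4 libraries, 2 per group, assigned by their labels. The authors deposited FPKM per gene, in 1 file for each library. The submitters' processing notes name Trimmomatic, HISAT2, featureCounts and the builds GRCm38 and mm10. Versions, strand use and annotation were not given in the sources used here.

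Whole read numbers were recovered from the digits of the FPKM with GENCODE M21 exon-union lengths, which fitted 96.5% of the genes above 0 and 29 of the 34 members (tolerance 0.0001). For the other 5 (Tm7sf2, Scd1, Scd2, Fads1 and Fads2) the smallest length giving whole numbers was used, so their read numbers are minimum numbers. Among genes with 1 to 10 reads, 64.0% to 77.0% per library had an even number. Both mates of a pair may thus be counted, and independent fragments are then fewer than the reads printed. At these totals 1 read in 1 kb is worth 0.243 to 0.397 FPKM. Exons of 12 members overlap another M21 gene, strand ignored. They are Hmgcs1, Lss, Fdft1, Fdps, Idi1, Cyp51, Scap, Srebf1, Tm7sf2, Scd2, Elovl1 and Elovl6.

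The test was limma 3.58.1 in R 4.3.3 on log2(FPKM + 1), with a mean-variance trend in eBayes, over genes averaging 1 FPKM or more, two-sided, Benjamini-Hochberg adjusted over all genes tested. It was also run on simulated reads, with the same setting of replicate spread for all genes. No simulated library held liver transcripts of its own, so that run does not cover this feature of the data. In fits without 1 library the filter used the remaining ones. This scale understates changes of low genes. Alternatives were a pseudocount of 0.1, no filter, no trend, median ratio scaling, quantile normalization, voom on recovered reads, a replicate block and leaving out each library. Values are given for members called in the main fit or without either circEsyt2 siRNA library, for 12 regulators and key enzymes, and where the circEsyt2 siRNA libraries differ by over 1 (log2), and for called genes of the other pathway lists; other genes named were chosen after their values were seen. Members and lists were chosen with earlier results of these data known.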

Additional observations from a re-analysis of the deposited data

How the results depend on the processing

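In the sterol branch 0 genes were called by limma in all 11 alternatives, and its median of 0.02 ranged from −0.06 to 0.19 when 1 library was left out. In the fatty acid branch the count of 1 became 0 with eBayes without a trend and 2 with voom on recovered reads, and ranged from 0 to 2 when 1 library was left out. Over the whole table the 1437 called genes became 577 with eBayes without a trend and ranged from 0 (either scramble library left out) to 1027 (circEsyt2 siRNA replicate 1 left out). Elovl6 kept its direction in all 11, with fold changes of −1.97 to −1.13, and its call in 7. The titles give replicate numbers in both groups but no sign of pairing (r = −0.0507 across genes between same-numbered deviations), and with the replicate block 1008 genes were called, 0 in the sterol branch and 1 in the fatty acid branch. With that block Ch25h (adjusted p = 0.0658), Fads3 (0.0627), Hsd17b12 (0.0804) and Acsl4 (0.0657) lost their calls. Hsd17b12 also lost its call with quantile normalization (adjusted p = 0.0529), and Hsd17b12 and Acsl4 with no filter (0.0668 and 0.0506). Of the uncalled members, 15 changed sign in at least 1 alternative. Sqle was 0.0011 with median ratio scaling, Hsd17b7 −0.03 with quantile normalization and −0.0027 with voom, and Fasn 0.0057 with voom. With 1 library left out, fold changes ranged from −0.12 to 0.09 for Sqle, −0.48 to 0.37 for Idi1, −0.07 to 0.33 for Mvd, −0.40 to 0.17 for Mvk, −0.16 to 0.63 for Pmvk, −0.02 to 0.44 for Sc5d, −0.09 to 0.10 for Hsd17b7, −0.47 to 0.24 for Acat2, −0.16 to 0.25 for Srebf1, −0.19 to 0.05 for Srebf2, −0.44 to 0.12 for Acaca, −0.23 to 0.19 for Fasn, −0.54 to 0.29 for Scd1, −0.24 to 0.15 for Scd2 and −0.02 to 0.18 for Fads1. The cause of these changes was not tested. The lowest Elovl6 value rests on 38 reads.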

Other observations

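Several genes of the other fatty acid list that are typical of liver were high in circEsyt2 siRNA replicate 1 alone, and were named after their values were seen. Thrsp, a lipogenic regulator, measured 0.363 and 0.888 FPKM with scramble siRNA and 9.83 and 0.292 FPKM with circEsyt2 siRNA, on 2, 8, 81 and 2 reads. Mlxipl, which encodes the carbohydrate response factor ChREBP, measured 0.431 and 0.132 FPKM against 3.84 and 0.462 FPKM. Elovl2, an elongase gene of very long polyunsaturated chains, measured 0 and 0.367 FPKM against 5.36 and 0.403 FPKM. Acsl1, an acyl-CoA synthetase gene, measured 2.24 and 2.87 FPKM against 6.28 and 1.56 FPKM. None of the 4 passed the test over both circEsyt2 siRNA libraries. Their differences from the scramble mean in replicate 1 were 2.75 for Thrsp, 1.93 for Mlxipl, 2.44 for Elovl2 and 1.04 for Acsl1. Since they were picked for high values there, no test of that library counts as support. Thrsp, Mlxipl and Elovl2 reached the mean of 1 FPKM needed for testing only through replicate 1. The part of the hepatocyte transcripts in these values was not tested. Elovl6 and Elovl5 were lower in replicate 1 than with scramble siRNA, unlike these 4 genes. Like them, both were higher in replicate 1 than in replicate 2 (4.17 against 1.89 FPKM and 15.8 against 6.45 FPKM). The part of the hepatocyte transcripts in the Elovl6 and Elovl5 values was not tested either. The Scd1 to Scd2 ratio of FPKM was 0.601 and 0.639 with scramble siRNA, 0.898 in circEsyt2 siRNA replicate 1 and 0.383 in replicate 2, so the circEsyt2 siRNA libraries lay on either side of the scramble pair.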
